A study of Mus musculus with 8 samples.

Results

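The genes described here are the enzymes that make and break down prostaglandins in the mouse testis. They were taken by symbol from a list of 10 enzyme genes (Ptgds, Hpgds, Ptges, Ptges2, Ptges3, Ptgs1, Ptgs2, Hpgd, Ptgr1 and Ptgr2), and 9 of the 10 had a row in the matrix of 24988 genes. Ptgs2, the inducible cyclooxygenase, had no row in the matrix used here and was not analysed here. The list was chosen by the CPM of Ptgds, which was high and was higher in the libraries labelled knockout than in those labelled wild type. Ptgds is therefore described with no test, and the other enzymes stand in the list for their function. The data were RNA sequencing of whole adult testis from 4 libraries labelled Kpna2 knockout (genotype Kpna2-/-) and 4 labelled wild type (WT). Kpna2 encodes one of the importin alpha proteins, which link cargo to the nuclear import machinery. The sources used here do not give how the allele was made, the strain, the exact age or the number of animals, so a p-value here sets a difference against the spread of these libraries, which may be technical.

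Prostaglandins are lipid signals cut from membranes and built in steps. A phospholipase A2 frees arachidonic acid, a cyclooxygenase (Ptgs1 or Ptgs2) turns it into prostaglandin H2, and a terminal synthase then makes prostaglandin D2 (Ptgds or Hpgds) or prostaglandin E2 (Ptges, Ptges2 or Ptges3). Hpgd, 15-hydroxyprostaglandin dehydrogenase, starts the breakdown by oxidising the signal, and the reductases Ptgr1 and Ptgr2 carry out the next step. In the fetal mouse testis, prostaglandin D2 is known for supporting Sox9 in Sertoli cells, and SOX9 in turn activates Ptgds. The product of Ptgds is also a secreted lipocalin, a carrier of small lipids, and is abundant in the fluids of the male tract.

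The levels of the 9 enzymes spanned a wide range, so the stretches upstream of the 2 with the highest level per length are shown. They are 250 bases that end just before the RefSeq start of the gene (build GRCm38.p6, 5′ to 3′ on the strand of the gene), with the dinucleotide CG in capitals. The Ptgds stretch is chr2:25469750-25469999 on the minus strand, and that of Ptges3 is chr10:128058732-128058981 on the plus strand. The GENCODE annotation, which gives the gene positions below, starts both genes farther upstream than RefSeq. Its Ptgds span, 25466709 to 25470046, holds the whole Ptgds stretch. Its Ptges3 span starts at 128058954, so the last bases of the Ptges3 stretch lie inside that span.
Ptgds: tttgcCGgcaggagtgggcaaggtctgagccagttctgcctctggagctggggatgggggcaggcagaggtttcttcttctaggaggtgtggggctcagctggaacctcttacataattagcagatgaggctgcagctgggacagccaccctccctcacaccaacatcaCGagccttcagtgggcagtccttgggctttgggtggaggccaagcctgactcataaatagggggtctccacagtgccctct
Ptges3: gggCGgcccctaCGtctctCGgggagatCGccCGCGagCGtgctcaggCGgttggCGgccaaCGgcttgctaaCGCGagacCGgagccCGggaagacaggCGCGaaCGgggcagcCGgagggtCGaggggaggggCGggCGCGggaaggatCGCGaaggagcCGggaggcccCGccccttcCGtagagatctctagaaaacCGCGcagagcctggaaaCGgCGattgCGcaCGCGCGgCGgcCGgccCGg
The Ptgds stretch held 2 CG dinucleotides and 58.4% G or C, and 29.0% of the 32851 stretches of the same length in the table held at most 2. The Ptges3 stretch held 38 CG and 73.2% G or C, and 98.4% of all stretches held at most 38. The median stretch held 6 CG and 52.4% G or C. In the other 8 enzymes, Ptgs2 included, the number of CG lay between 3 (Hpgds) and 15 (Ptges2).

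Levels are in CPM, the read count of a gene after the authors' scaling for library size, and means carry the SD over the 4 libraries of a label. A log2 difference is the knockout label minus the wild-type label in log2(CPM + 0.5), a scale that shrinks the changes of genes with few reads. A gene is called when its limma adjusted p (Benjamini-Hochberg over all 22027 tested genes) is under 0.05. The libraries held 31133443 to 37797812 reads in genes. Kpna2 itself was not lower under the knockout label: it stood at 15.3 to 21.7 CPM in the libraries labelled knockout and at 12.4 to 15.1 CPM in those labelled wild type, a log2 difference of 0.44 with an SE of 0.10 (limma adjusted p = 0.0079; exact two-sided permutation p = 0.0286, the smallest that 70 assignments allow). The target gene goes against the label, so every direction here is that of the libraries labelled knockout. Insl3, a hormone that marks Leydig cells, stood at 401 ± 86.9 CPM in the libraries labelled knockout and 434 ± 16.4 CPM in those labelled wild type. The 30 listed Sertoli markers summed to 2105 to 2428 CPM in the libraries labelled knockout and 2344 to 2519 CPM in those labelled wild type. By these levels somatic cells of the testis were in these libraries.

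Ptgds, the lipocalin-type prostaglandin D synthase (ENSMUSG00000015090; chromosome 2, 25466709 to 25470046, minus strand, in GRCm38), stood at 273, 361, 240.5 and 373 CPM in the libraries labelled knockout, against 193, 93.7, 183 and 126 CPM in those labelled wild type. The groups did not overlap, and their nearest libraries were at 240.5 CPM under the knockout label and 193 CPM under the wild-type label. The mean was 312 ± 65.2 CPM under the knockout label and 149 ± 47.2 CPM under the wild-type label, 2.09-fold higher, with a log2 difference of 1.10 (SE 0.19), from 3245 to 12812 reads per library. When each library was left out in turn the log2 difference stayed between 0.90 and 1.24. In whole tissue, more cells of a type and more RNA per cell cannot be told apart.

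**Figure D1:**
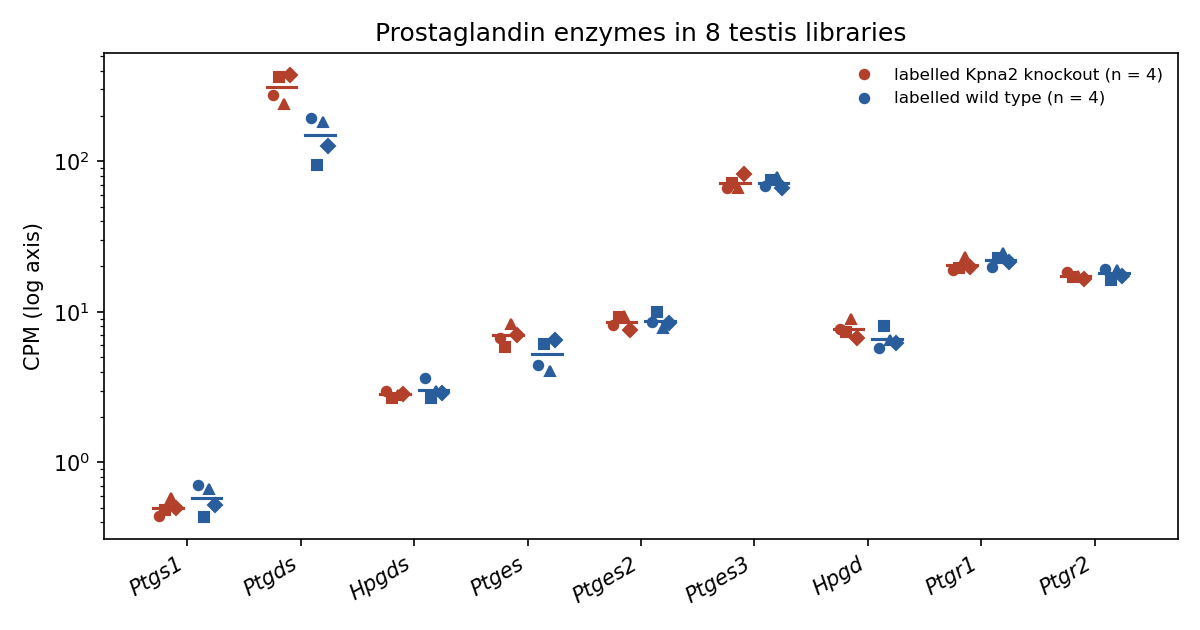
CPM (log axis) of the 9 measured prostaglandin enzymes in each of 8 testis libraries, labelled knockout on the left and labelled wild type on the right of each gene, with bars at the means (n = 4 each) and circle, square, triangle and diamond for replicates 1 to 4. Ptgds is the gene whose groups do not overlap, at 240.5 to 373 CPM under the knockout label against 93.7 to 193 CPM under the wild-type label.

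Ptgds also varied widely between libraries with the same label. Its residual SD after the group means were taken out was 0.41 on the log2 scale. Of the 4408 tested genes averaging 50 CPM or more (a limit set after the values were seen), 13 had a larger one. Among these 13 were Star, the cholesterol carrier of steroid-making cells, and Agt, which encodes angiotensinogen. Agt, like Ptgds, was higher under the knockout label (limma adjusted p = 0.0052). It stood at 253, 345, 260 and 307 CPM in the libraries labelled knockout and at 213, 81.6, 184 and 96.1 CPM in those labelled wild type. Its wild-type libraries ranked like those of Ptgds, and its knockout-labelled libraries did not. Star was lower, at 47.4 ± 20.9 CPM under the knockout label and 116 ± 27.9 CPM under the wild-type label (limma adjusted p = 0.0019). Over all tested genes 2.04% had a larger residual SD than Ptgds, against 11.8% for Ptges, 32.0% for Hpgd and 47.1% to 77.1% for the other 6 enzymes.

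None of the other 8 measured enzymes was called by limma, nor by edgeR or DESeq2 on reads recovered from the values. By limma 1 of the 8, Ptges, had an unadjusted p under 0.05, which 30.2% of all tested genes had. Over all tested genes limma called 16.9%, edgeR 16.8% and DESeq2 18.1%. The groups did not overlap for 20.9% of all tested genes, and they overlapped for each of these 8. The median log2 difference of the 8 was -0.04, and over all tested genes it was -0.01.

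Ptgs1, the constitutive cyclooxygenase that makes prostaglandin H2 (chromosome 2, 36230426 to 36252272, GRCm38 as for all positions here), was barely detected. It stood at 0.438, 0.486, 0.581 and 0.495 CPM in the libraries labelled knockout and at 0.712, 0.433, 0.664 and 0.524 CPM in those labelled wild type, from 15 to 24 reads per library. The groups overlapped (log2 difference -0.11, SE 0.14, limma adjusted p = 0.65), and a difference of that size was not detectable at this depth. For scale, 3 reads in a library correspond to 0.0786 to 0.0968 CPM.

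Hpgds, the haematopoietic prostaglandin D synthase, makes the same product as Ptgds and lies at chromosome 6, 65117293 to 65144908. It stood at 2.98, 2.69, 2.81 and 2.85 CPM in the libraries labelled knockout and at 3.65, 2.66, 2.99 and 2.88 CPM in those labelled wild type. The values lay together except for the highest, in wild-type replicate 1 (log2 difference -0.08, SE 0.12, limma adjusted p = 0.68). Per kilobase of annotated exons, Hpgds reached 0.441 ± 0.0186 CPM in the libraries labelled knockout and 0.474 ± 0.0664 CPM in those labelled wild type, far under Ptgds at 189 ± 39.5 CPM per kilobase under the knockout label and 90.3 ± 28.6 under the wild-type label.

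Of the prostaglandin E synthases, Ptges, the microsomal and inducible one (chromosome 2, 30889471 to 30929863), came nearest to the threshold. It stood at 6.74, 5.84, 8.30 and 7.01 CPM in the libraries labelled knockout and at 4.45, 6.07, 4.04 and 6.53 CPM in those labelled wild type. Knockout replicate 2 lay under wild-type replicates 2 and 4, so the groups overlapped. The mean was 6.97 ± 1.02 CPM under the knockout label and 5.27 ± 1.21 CPM under the wild-type label, a log2 difference of 0.39 with an SE of 0.15 (limma adjusted p = 0.088). It was called in 1 of 18 alternatives, without wild-type replicate 4 (log2 difference 0.49, limma adjusted p = 0.043).

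Ptges2, a membrane-associated E synthase (chromosome 2, 32395896 to 32405772), and Ptges3 (chromosome 10, 128058954 to 128077272), which is better known as p23, a co-chaperone of Hsp90, had small differences between the labels. Ptges2 averaged 8.57 ± 0.868 CPM in the libraries labelled knockout and 8.73 ± 0.929 CPM in those labelled wild type (limma adjusted p = 0.90). Ptges3 averaged 71.8 ± 7.07 CPM in the libraries labelled knockout and 72.2 ± 5.49 CPM in those labelled wild type (limma adjusted p = 0.95). The log2 differences were -0.02 with an SE of 0.10 for Ptges2 and -0.01 with an SE of 0.07 for Ptges3, and their signs turned when some single libraries were left out. The annotation names a processed pseudogene, Ptges3-ps. How reads with several matches were counted is not stated, so the value of Ptges3 is uncertain to that extent.

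Hpgd, the dehydrogenase that starts prostaglandin breakdown (chromosome 8, 56294585 to 56321043), stood at 7.65, 7.38, 8.91 and 6.72 CPM in the libraries labelled knockout and at 5.73, 8.06, 6.49 and 6.21 CPM in those labelled wild type. Wild-type replicate 2, at 8.06 CPM, lay above 3 of the 4 libraries labelled knockout (log2 difference 0.20, SE 0.12, limma adjusted p = 0.27). The reductases that act after it had narrow spreads. Ptgr1 (chromosome 4, 58965439 to 58987119), which also oxidises leukotriene B4, averaged 20.4 ± 1.74 CPM in the libraries labelled knockout and 22.1 ± 1.90 CPM in those labelled wild type (log2 difference -0.11, SE 0.08, limma adjusted p = 0.38). Ptgr2 (chromosome 12, 84285232 to 84315832) averaged 17.3 ± 0.716 CPM in the libraries labelled knockout and 17.96 ± 1.35 CPM in those labelled wild type (log2 difference -0.05, SE 0.07, limma adjusted p = 0.69). Annotated opposite-strand genes with a row overlap Ptgr2 (Gm47484) and Hpgds (Gm17147), each at under 1 CPM on average under either label. Annotated genes without a row overlap Hpgd (Gm45540) and Ptges (the processed pseudogene Gm13400) on the same strand and Ptgs1 (Gm43621) on the opposite strand. Whether these overlaps affected the counts is not known.

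Per kilobase of annotated exons the order of the levels was the same under both labels except for one exchange. Under the knockout label it ran Ptgds, Ptges3 (32.4 ± 3.19 CPM per kilobase), Ptgr1 (8.88 ± 0.759), Hpgd (4.55 ± 0.544), Ptgr2 (2.92 ± 0.121), Ptges (1.77 ± 0.259), Ptges2 (1.69 ± 0.172), Hpgds and Ptgs1 (0.129 ± 0.0153). Under the wild-type label Ptges2 (1.73 ± 0.184 CPM per kilobase) stood above Ptges (1.34 ± 0.307), and the libraries of this pair overlapped under either label, so their order does not exceed the spread. All other neighbours in the order had no overlap between libraries. The level of Ptgds was 5.84 times that of Ptges3 under the knockout label and 2.77 times under the wild-type label. With the length of the longest basic transcript instead, a choice added after the data were seen, the ratio was 9.64 under the knockout label and 4.58 under the wild-type label, and Ptgr2 stood above Hpgd under both labels, with overlap under the knockout label.

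Within each label, Ptges and Hpgd were low in most libraries where Ptgds was high. Under the knockout label Ptgds was lowest in replicate 3, where Ptges and Hpgd were highest of their group. Under the wild-type label Ptgds was lowest in replicate 2, where Hpgd was highest and Ptges the second highest, and Ptgds was highest in replicate 1, where Hpgd was lowest. After the group means were taken out, Pearson's r with Ptgds over the 8 libraries was -0.85 for Hpgd, -0.82 for Ptges and -0.66 for Ptges2, and it was 0.66 for Ptgs1, 0.60 for Hpgds, 0.59 for Ptgr2, 0.34 for Ptges3 and -0.29 for Ptgr1. These are descriptions over 8 points that share their libraries and scaling, with no p.

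**Figure D2:**
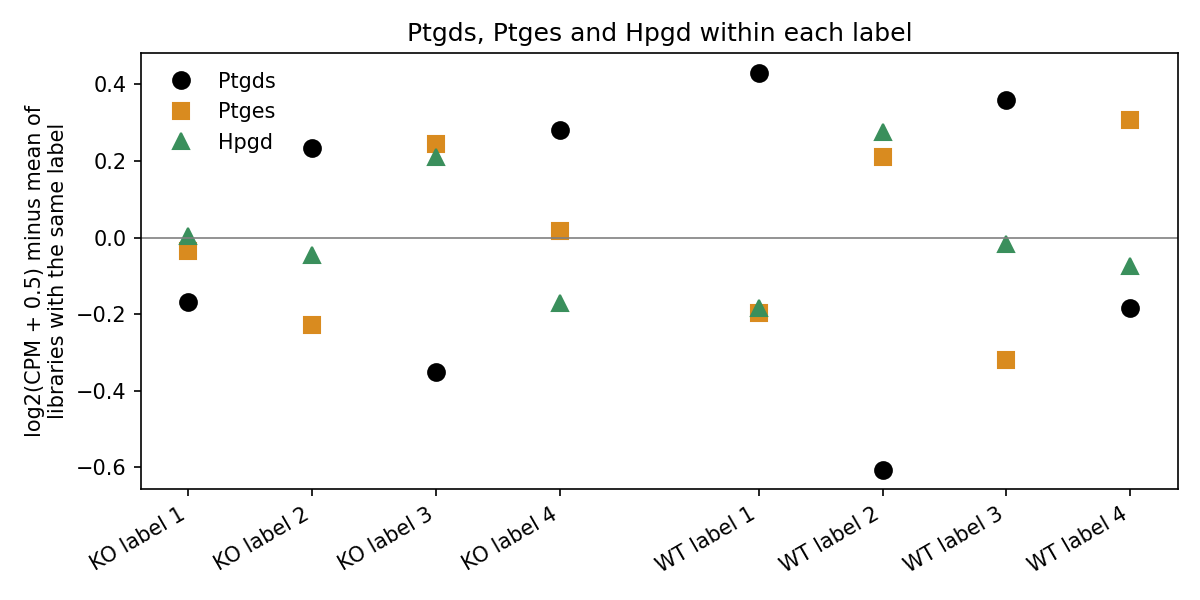
Deviation of log2(CPM + 0.5) of Ptgds (circles), Ptges (squares) and Hpgd (triangles) from the mean of the 4 libraries with the same label, in the libraries labelled knockout (KO label, left) and wild type (WT label, right). In knockout replicate 3 and wild-type replicate 2 Ptgds lies below 0 with both other genes above it.

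Among 10901 other genes averaging 5 CPM or more that are not clone or predicted-gene names, those whose group-centred values were most like Ptgds were Cog4 (r = 0.97 over 8 libraries), Cdon (0.96), Atp6v1b2 (0.96), Pygb (0.94) and Fmr1nb (0.94). Cog4, a subunit of a Golgi tethering complex, changed little between libraries of one label. It averaged 106 ± 1.26 CPM in the libraries labelled knockout and 101 ± 2.45 CPM in those labelled wild type. Cdon varied more, from 6.88 to 8.18 CPM in the libraries labelled knockout and from 6.01 to 8.66 CPM in those labelled wild type. None of the 5 was called by limma. A search over so many genes with 8 points finds high values readily, and the likeness is given as a description. The measured named genes on either side of Ptgds on chromosome 2 (Paxx, Clic3 and Abca2 on one side, C8g, Fbxw5 and Traf2 on the other) were not called by limma either. DESeq2 called Fbxw5 (adjusted p = 0.041), as did limma without knockout replicate 2 (adjusted p = 0.0059). The nearest, Paxx, at 5615 bases by GRCm38, averaged 15.8 ± 1.16 CPM in the libraries labelled knockout and 15.3 ± 1.17 CPM in those labelled wild type. C8g, itself a lipocalin gene, averaged 25.5 ± 1.42 CPM in the libraries labelled knockout and 26.5 ± 1.48 CPM in those labelled wild type.

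Upstream of the enzymes, the phospholipases A2, which free arachidonic acid and other fatty acids, had 5 of 15 tested genes called by limma, 3 higher and 2 lower, where 8.62% of all tested genes were called higher and 8.32% lower. The list's median log2 difference was 0.08. Pla2g4e, a member of the cytosolic group IV, had the largest difference of the list. It stood at 0.613, 0.658, 0.549 and 0.669 CPM in the libraries labelled knockout, against 3.95, 3.70, 5.34 and 5.01 CPM in those labelled wild type, a 7.23-fold lower mean (log2 difference -2.14, SE 0.14, limma adjusted p = 1.6e-07). Every library labelled knockout lay far under every library labelled wild type, from 17 to 191 reads per library.

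Pla2g16, a phospholipase abundant in adipose tissue, also fell. It stood at 4.07 to 5.38 CPM in the libraries labelled knockout and at 7.66 to 8.60 CPM in those labelled wild type, with no overlap (log2 difference -0.73, SE 0.10, limma adjusted p = 2.0e-04). Of 9 tested adipocyte markers, Adipoq, the adipocyte hormone gene, and Cidec, a lipid droplet gene, also fell. Limma called 8.32% of all tested genes lower. The groups overlapped for Cidec, and its call was lost in 8 of 17 alternatives, among them those without knockout replicate 1, 2 or 4 or wild-type replicate 2 or 4 (limma adjusted p up to 0.14). The summed level of the adipocyte markers was 33.4 to 62.9 CPM in the libraries labelled knockout and 46.0 to 73.6 CPM in those labelled wild type. Their part in the fall of Pla2g16 was not tested.

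The 3 phospholipases that rose were Pla2g2d, Pla2g2c and Pla2g6. Pla2g2d, a secreted enzyme known from lymphoid tissue, rose 2.39-fold, at 1.34 ± 0.162 CPM in the libraries labelled knockout and 0.561 ± 0.0890 CPM in those labelled wild type (limma adjusted p = 8.6e-04). Pla2g2c, a secreted enzyme expressed in rodent testis, stood at 77.0, 89.2, 82.3 and 87.4 CPM in the libraries labelled knockout and at 69.0, 70.4, 67.3 and 60.4 CPM in those labelled wild type (log2 difference 0.33, SE 0.06, limma adjusted p = 0.0025). The annotation places Pla2g2c over 12376 bases of Ubxn10 on the opposite strand, which averaged 356 CPM in the libraries labelled knockout and 266 CPM in those labelled wild type. These bases are the overlap of the gene spans, introns included, and the overlap of exons was not computed. The strand setting of the counting is not given either, so whether reads of these genes were mixed is not known. Pla2g6, the calcium-independent phospholipase whose loss impairs sperm motility in mice, averaged 374 ± 26.8 CPM in the libraries labelled knockout and 330 ± 6.31 CPM in those labelled wild type (log2 difference 0.18, SE 0.05, limma adjusted p = 0.033). It was not called in 9 of 18 alternatives, among them those without knockout replicate 3 or 4 or any 1 wild-type library (limma adjusted p up to 0.11). An opposite-strand transcript, Gm20420, overlaps the gene span of Pla2g6. It averaged 4.15 CPM in the libraries labelled knockout and 2.11 CPM in those labelled wild type. Pla2g10, a secreted enzyme of the sperm acrosome, averaged 49.7 ± 4.59 CPM in the libraries labelled knockout and 46.8 ± 3.46 CPM in those labelled wild type and was not called (limma adjusted p = 0.48).

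Arachidonic acid is also the substrate of lipoxygenases. Of 10 tested lipoxygenase and leukotriene genes, limma called 1, against 16.9% of all tested genes. The 1 was Alox5, the enzyme that starts leukotriene synthesis. Alox5 stood at 6.63, 6.86, 7.17 and 5.88 CPM in the libraries labelled knockout, against 2.28, 2.69, 3.08 and 1.94 CPM in those labelled wild type, a 2.66-fold higher mean with no overlap (log2 difference 1.26, SE 0.13, limma adjusted p = 1.4e-05). Alox5ap, its activating protein, was not called. Lta4h, which makes leukotriene B4, averaged 20.9 ± 1.17 CPM in the libraries labelled knockout and 23.1 ± 0.815 CPM in those labelled wild type (limma adjusted p = 0.14). Macrophages are known to express Alox5. Of 18 tested macrophage markers limma called 1, Cx3cr1, at 2.87 CPM on average in the libraries labelled knockout and 4.28 CPM in those labelled wild type (limma adjusted p = 0.048). Its groups overlapped, and the call was lost in 12 of 18 alternatives, among them those without any 1 library other than wild-type replicate 3 (adjusted p up to 0.14). The summed level of the macrophage markers was 472 to 591 CPM in the libraries labelled knockout and 518 to 566 CPM in those labelled wild type. Aif1 alone made up 336 to 397 CPM of it in the libraries labelled knockout and 365 to 399.7 CPM in those labelled wild type. The part of macrophages in the rise of Alox5 was not tested.

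**Figure D3:**
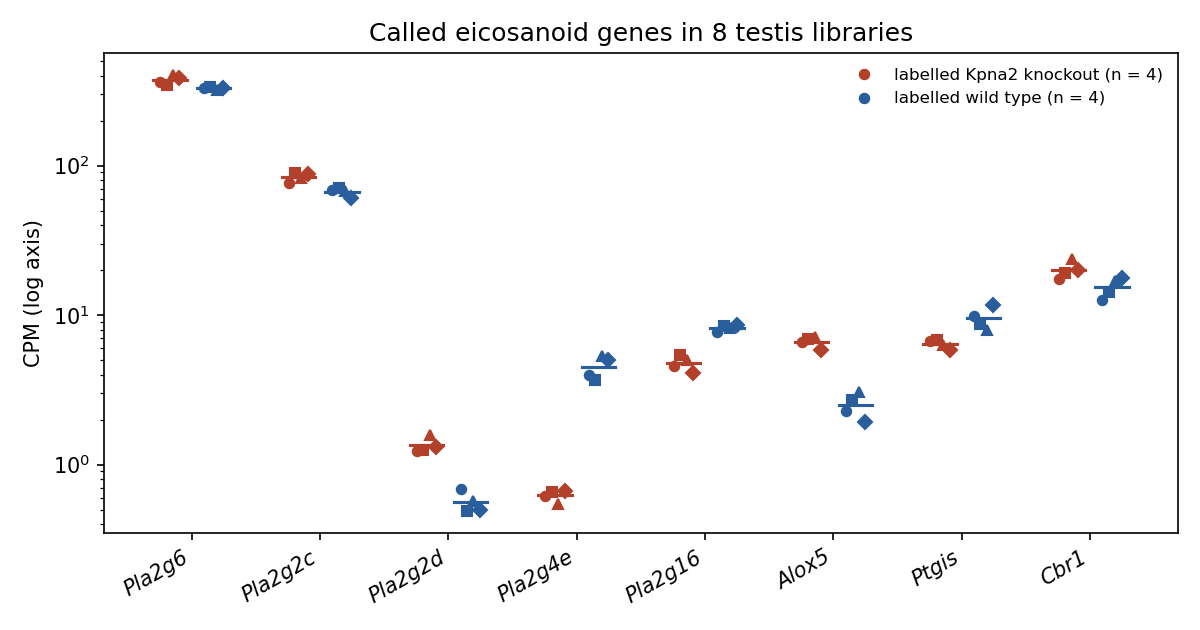
CPM (log axis) of the called phospholipase, lipoxygenase and prostanoid genes in each of 8 libraries, labelled knockout on the left and labelled wild type on the right of each gene, with bars at the means (n = 4 each) and circle, square, triangle and diamond for replicates 1 to 4. Pla2g4e and Alox5 stand farthest apart, in opposite directions, while Cbr1 overlaps between the labels.

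Of 10 tested genes for other prostanoid synthases and reductases, limma called 1 higher and 1 lower. Over all tested genes it called 8.62% higher and 8.32% lower, the shares to set beside each count in this paragraph. Ptgis, prostacyclin synthase, stood at 6.68, 6.78, 6.33 and 5.82 CPM in the libraries labelled knockout and at 9.88, 8.66, 7.97 and 11.7 CPM in those labelled wild type, a 1.49-fold lower mean with no overlap (log2 difference -0.53, SE 0.11, limma adjusted p = 0.0053). It is known as an enzyme of vessel walls and smooth muscle. Of 12 peritubular myoid markers 5 fell, Acta2 and Actg2 among them, and none rose, with a summed level of 399.8 to 436 CPM in the libraries labelled knockout and 469 to 557 CPM in those labelled wild type. Actg2 averaged 246 CPM of it in the libraries labelled knockout and 296 CPM in those labelled wild type. Of 15 endothelial markers Vwf and Tek fell and Sox17 rose, with sums of 64.6 to 75.1 CPM in the libraries labelled knockout and 67.1 to 74.4 CPM in those labelled wild type. The part of these cells in the fall of Ptgis was not tested. An opposite-strand transcript, 1110018N20Rik, overlaps the gene span of Ptgis by 1004 bases, introns included. It averaged 6.47 CPM in the libraries labelled knockout and 6.51 CPM in those labelled wild type.

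Cbr1, a carbonyl reductase that converts prostaglandin E2 to F2 alpha, rose, with 20.1 ± 2.66 CPM in the libraries labelled knockout and 15.4 ± 2.36 CPM in those labelled wild type (log2 difference 0.38, SE 0.11, limma adjusted p = 0.031). The groups overlapped, and the call was lost in 5 of 18 alternatives, among them those without knockout replicate 3 or 4 or wild-type replicate 1 or 2 (limma adjusted p up to 0.097). Gstm2, a glutathione transferase, averaged 105 ± 16.8 CPM in the libraries labelled knockout and 86.1 ± 7.39 CPM in those labelled wild type and was not called (limma adjusted p = 0.070). It was called in 3 of 18 alternatives.

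No tested gene that carries or receives prostaglandins was called, where limma called 16.9% of all tested genes. The receptor genes Ptger2, Ptger3 and Ptgfr and the transporter gene Slco4a1 had no row. Ptger4 and Ptgir had a row but were under the filter and were not tested. Of 4 tested transporter genes limma called none and none had an unadjusted p under 0.05; edgeR and DESeq2 called none. Slco3a1, an organic anion transporter, averaged 69.2 ± 6.68 CPM in the libraries labelled knockout and 62.5 ± 3.88 CPM in those labelled wild type (limma adjusted p = 0.19). Slco2a1, the prostaglandin transporter, averaged 4.79 ± 0.492 CPM in the libraries labelled knockout and 5.36 ± 0.805 CPM in those labelled wild type. Of 6 receptor genes with a row, 4 passed the filter of a mean of 0.5 CPM, and limma, edgeR and DESeq2 called none, with 1 at an unadjusted limma p under 0.05. Of the receptors of prostaglandin D2, Ptgdr averaged 1.33 ± 0.256 CPM in the libraries labelled knockout and 1.19 ± 0.155 CPM in those labelled wild type (limma adjusted p = 0.65). Ptgdr2 averaged 1.57 ± 0.259 CPM in the libraries labelled knockout and 2.09 ± 0.503 CPM in those labelled wild type (limma adjusted p = 0.19). Ptger1, a receptor of prostaglandin E2 and the gene with the low unadjusted p, stood at 0.416 ± 0.162 CPM in the libraries labelled knockout and 0.744 ± 0.223 CPM in those labelled wild type (limma adjusted p = 0.092).

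**Figure D4:**
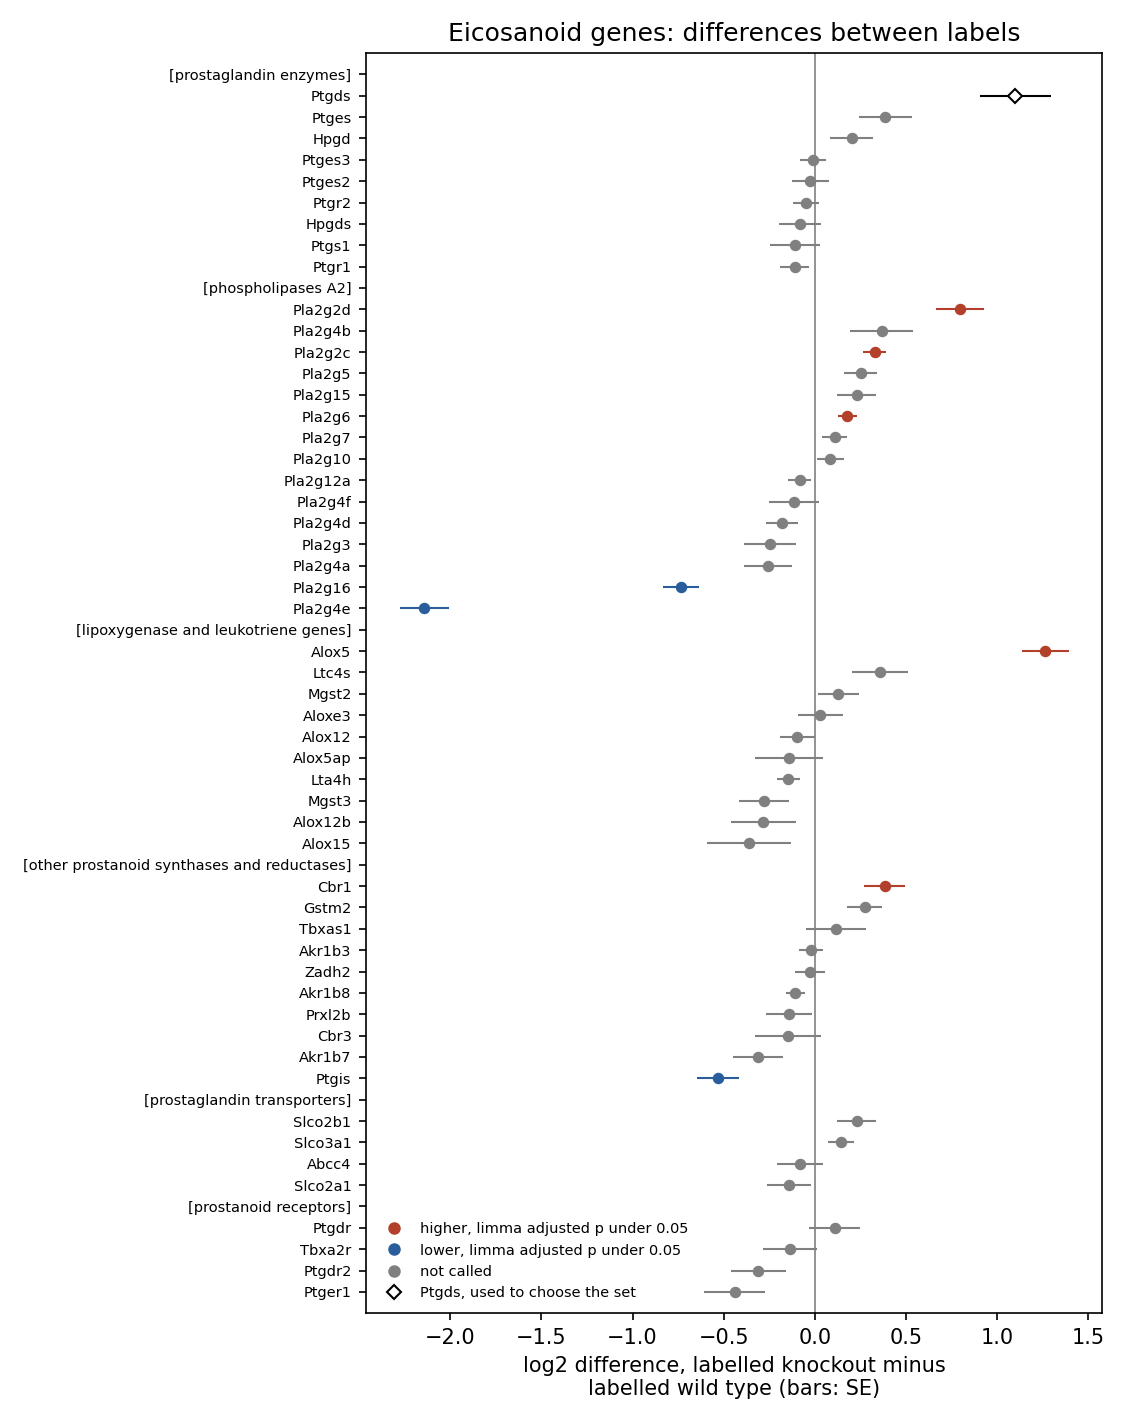
Log2 differences (knockout label minus wild-type label, n = 4 each, bars are SE) of the tested prostaglandin enzymes and of 5 lists of related genes. The open diamond is Ptgds, which was used to choose the set, and the other enzymes of the set lie between -0.11 and 0.39.

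Of 5 tested lipocalin genes other than Ptgds, limma called 1, against 16.9% of all tested genes. Ambp, which encodes a lipocalin and a protease inhibitor, rose 2.56-fold, at 3.00 ± 0.479 CPM in the libraries labelled knockout and 1.17 ± 0.505 CPM in those labelled wild type (limma adjusted p = 0.0013). Lcn2, a lipocalin of iron-binding siderophores, stood at 101, 122, 147 and 79.1 CPM in the libraries labelled knockout and at 127, 102, 104 and 98.3 CPM in those labelled wild type, with wide overlap (limma adjusted p = 0.92).

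Markers of the cell types of the testis are given beside Ptgds. Over all tested genes limma called 8.62% higher and 8.32% lower. Of 29 tested Sertoli markers 6 fell and 1 rose, with a summed level of 2105 to 2428 CPM in the libraries labelled knockout and 2344 to 2519 CPM in those labelled wild type. Sox9, named beyond the naming rule given below, stood at 13.2, 12.9, 12.2 and 9.17 CPM in the libraries labelled knockout. In those labelled wild type it stood at 19.0, 17.2, 18.1 and 16.6 CPM, with no overlap (log2 difference -0.57, SE 0.10, limma adjusted p = 0.0017). A link between Sox9 and the level of Ptgds was not tested. Defb36 and Cyp26b1 also fell and Shbg rose. Of 21 Leydig markers 8 fell and 1, Hsd3b1, rose, with sums of 1349 to 1878 CPM in the libraries labelled knockout and 1802 to 2033.5 CPM in those labelled wild type, and the kallikrein genes Klk1b27 and Klk1b21 had the smallest p of those that fell. These families have close copies, so their values are uncertain.

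Ptgds is also known as an abundant gene of the epididymis. Of 22 epididymis and efferent duct markers 16 had no row in the matrix, among them Lcn5, Lcn8, Crisp1 and Gpx5. The 6 with a row summed to 21.0 to 31.6 CPM in the libraries labelled knockout and 16.8 to 28.0 CPM in those labelled wild type. Of these Rnase10 rose and Spink8 and Krt19 fell, where limma called 8.62% of all tested genes higher and 8.32% lower. The groups overlapped for Krt19, and its call was lost in 5 of 17 alternatives, those without knockout replicate 3 or 4 or wild-type replicate 1, 3 or 4 (limma adjusted p up to 0.089). Of 10 listed markers of mast cells, which are known for Hpgds, 5 had a row. Mcpt4 had 1 to 2 reads per library under the knockout label and 7 to 14 under the wild-type label. Cma1 had 3 to 4 reads under the knockout label and 4 to 18 under the wild-type label. Both were under the filter and were not tested. Of the 3 tested genes 1 had an unadjusted limma p under 0.05 and none passed the adjusted threshold. The 5 genes summed to 22.0 to 25.4 CPM in the libraries labelled knockout and 26.2 to 29.2 CPM in those labelled wild type. Most of that sum was Hdc, histidine decarboxylase, the gene with the low unadjusted p, at 20.8 to 23.9 CPM in the libraries labelled knockout and 23.8 to 27.3 CPM in those labelled wild type. Every gene in the matrix had at least 30 reads in total, so no marker with a row could be at 0 in all 8 libraries. The part of any of these cells in the level of Ptgds was not tested.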

How the data were processed

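Total RNA of testis was extracted with TRIzol, treated with DNase and made into TruSeq RNA libraries, per the labels' protocols. Reads were processed with Trimmomatic, Subread and featureCounts on GRCm39 (mm39), per the submitters' processing notes, with versions and strand setting not given in the sources used here. The authors deposited a matrix of scaled signal per gene that its name calls CPM. Its columns sum to 990244 to 1025489, so the analysis plan's CPM is a scaled signal, and the planned test was kept. Within 0.01 of a read, 100% of its values were whole reads after division by the value of 1 read, which gave 31133443 to 37797812 reads per library. The column names were matched to the labels by their knockout or control wording and number.

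Genes averaging at least 0.5 CPM over the 8 libraries (22027 of 24988) were tested with limma 3.58.1 in R 4.3.3 on log2(CPM + 0.5) with a variance trend, and p-values were adjusted by the Benjamini-Hochberg method over all of them. The test was checked on simulated data. As alternatives, edgeR 4.0.16 and DESeq2 1.42.0 were run on the recovered reads, and other pseudocounts, filters, scalings, a replicate block and the omission of each library were tried. The members and lists were chosen with earlier results of these data known. Named were all members, Kpna2, up to 4 called genes and the highest gene not called of each list, up to 2 called markers in each direction, the 5 genes most like Ptgds and the 3 measured named genes on either side of it. Genes named beyond this rule, such as single receptors, Sox9, Pla2g6, Insl3, Star, Agt, Alox5ap, Slco2a1, Mcpt4 and Cma1, were chosen with their values known. Positions and lengths come from GENCODE M21 on GRCm38, another build than that of the counts, and upstream stretches from RefSeq, where all 10 enzymes matched. Symbols were found for 24890 of the 24988 genes. No pair of libraries of one label agreed within sampling noise. The 3-read floor covers counting error only.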

Additional observations from a re-analysis of the deposited data

Results flagged for a closer look

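In 7 of 108 groups of 4 libraries, 1 library stood apart from the other 3 by Dixon's criterion, where chance marks about 1 in 20. None of the 7 was in a prostaglandin enzyme. Slco3a1 was lowest in wild-type replicate 4, at 56.8 CPM. Pla2g10 was lowest in wild-type replicate 3, at 41.6 CPM. Klk1b21 was highest of its group in knockout replicate 4, at 1.69 CPM. Vwf was highest in wild-type replicate 4, at 18.7 CPM. Beside Ptgds on chromosome 2, Abca2 was highest in wild-type replicate 4 (26.9 CPM), Paxx was lowest in knockout replicate 1 (14.1 CPM) and Fbxw5 was lowest in wild-type replicate 3 (356 CPM).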

How the results depend on the processing

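The log2 difference of Ptgds, the gene that chose the set, was 1.07 to 1.10 in the alternatives with all libraries. It was 0.90 to 1.24 when 1 library was left out. The groups did not overlap for Ptgds, so leaving out a library could not turn its sign. Kpna2 ran from 0.38 to 0.55 when 1 library was left out. Limma called 3731 genes, the other settings with all libraries 2997 (a filter of 2 CPM) to 4073 (no filter), and leaving out 1 library 2788 to 3572. Among the 8 other enzymes 0 to 1 were called when 1 library was left out, the 1 being Ptges without wild-type replicate 4. Other prostanoid synthases had 2 calls, 1 with no variance trend, 3 with DESeq2 or the replicate block, and 1 to 3 when 1 library was left out (1 without knockout replicate 3 or 4 or wild-type replicate 1 or 2). Lipoxygenase genes had 1 call, 2 with no filter and 1 to 2 when 1 library was left out (2 without knockout replicate 4). Phospholipases had 4 to 6 calls, lipocalins 1, and receptors and transporters 0. The wild-type ratio of Ptgds to Ptges3 was 2.77, 2.46 to 3.16 when 1 library was left out, and 4.58 with the longest basic transcript, which shortens Ptgds to 901 bases, against 1649 by exon union, and Ptges3 to 2000, against 2217. The cause was not tested for the other changes.

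The sign of 6 named genes with small differences turned in some settings. When 1 library was left out, Ptges2 ran from -0.07 to 0.04 (0.03 without knockout replicate 4, 0.04 without wild-type replicate 2), Ptges3 from -0.07 to 0.03, Lcn2 from -0.11 to 0.19, Cdon from -0.06 to 0.10, Abca2 from -0.08 to 0.02 and Traf2 from -0.07 to 0.02 (0.00 by quantile normalization). No scaling moved the median log2 difference of all genes past -0.01.

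Same-numbered libraries did not deviate together over all tested genes (correlations -0.018, 0.039, -0.018 and -0.031 for numbers 1 to 4). Replicate 2 alone correlated best with its own number. The numbers thus gave no sign of pairing over all genes, which cannot exclude a pairing that touches few genes. With the replicate number as a block limma called 3446 genes, the Ptgds difference was 1.10, Pla2g6 was not called (limma adjusted p = 0.057) and Gstm2 was (limma adjusted p = 0.045). Ptgs1 rests on 15 to 24 reads per library.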
